A study of Mus musculus with 20 samples.

Results

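The epidermal growth factor (EGF) receptor family and its main ligands were followed in the pituitary and in the inguinal white adipose depot (iWAT, fat under the skin of the groin) of mice. The 10 genes, of 24062 in the count tables, were chosen by name: the receptors Egfr, Erbb2, Erbb3 and Erbb4, the EGFR ligands Tgfa, Egf, Hbegf, Btc and Areg, and the neuregulin Nrg1. The family was picked because Tgfa was higher in pituitary libraries labelled Klf14 knockout (KO) than in those labelled wild type (WT). Values from that contrast are therefore a description here, given without a test. The mice were male C57BL/6N animals on chow, and the KO group is described as carrying a germline deletion of Klf14, which encodes a zinc finger transcription factor of the Krüppel-like family. Each tissue gave 5 libraries of poly(A) RNA per labelled genotype. The mice labelled WT were 21 weeks (33 and 34), 19 weeks (48 and 49) and 18 weeks (56) old, and those labelled KO were 21 weeks (31, 32, 35 and 66) and 19 weeks (50) old. The numbers in parentheses are those of the libraries, and "mouse" with such a number names a library below. The labels do not say in words that each library of a group is a different animal, although ages differ within each group. A p-value here therefore reflects the spread from library to library, part of which may be technical.

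Each of these ligands is made as a membrane-anchored precursor and is released, or presented to a neighbouring cell, to bind a receptor tyrosine kinase. TGFα, EGF and amphiregulin (Areg) bind EGFR, HB-EGF (Hbegf) and betacellulin (Btc) bind EGFR and ERBB4, and neuregulin 1 (Nrg1) binds ERBB3 and ERBB4. ERBB2 binds no ligand and serves as a partner of the others, and ERBB3 has little kinase activity of its own, so receptor pairs are the signalling units. In the pituitary, EGF and TGFα are known as local growth factors that act on hormone-producing cells, and in fat EGFR ligands act on preadipocytes.

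The libraries held 13591695 to 18689881 counts. Levels are CPM, counts scaled to a common library size by TMM, and 1 read corresponded to 0.0532 to 0.0753 CPM. The tissue labels fitted their markers: 3 somatotroph genes summed to 68591 to 114520 CPM in the pituitary and 6 adipocyte genes to 4960 to 18720 CPM in iWAT, against 2.02 to 3.88 CPM for the adipocyte genes in the pituitary, with Lep at 0 in all 10 libraries and Adipoq at 0 in the 5 labelled WT. In iWAT the somatotroph genes summed to at most 0.97 CPM in the labelled WT libraries and to 96.5 CPM in 1 labelled KO library, mouse 32. Klf14, the targeted gene, was higher in the pituitary libraries labelled KO (31.8 ± 2.86 CPM, SD, n = 5) than in those labelled WT (15.9 ± 1.72 CPM), with no overlap, which is the reverse of what the labels imply. The libraries are therefore called by their labels throughout, and every direction below is that of the labels.

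Tgfa, which encodes TGFα, is a gene of chromosome 6 (chr6:86195251-86275449 in mm10, plus strand), 55.2 Mb from Klf14 on the same chromosome. In the pituitary its level in the libraries labelled KO was 20.6 CPM in mouse 31, 22.4 in mouse 32, 19.2 in mouse 35, 18.7 in mouse 50 and 21.6 in mouse 66. In those labelled WT it was 11.1 CPM in mouse 33, 10.7 in mouse 34, 11.1 in mouse 48, 11.1 in mouse 49 and 14.7 in mouse 56. The lowest labelled KO library lay above the highest labelled WT library, mouse 56, which itself stood above the other 4. These levels rested on 260 to 388 reads per library labelled KO and 158 to 240 per library labelled WT. The means were 20.5 ± 1.53 and 11.8 ± 1.66 CPM (SD, n = 5), a log2 difference of 0.80 (standard error, SE, 0.094) or 1.74-fold. Without mouse 56 the log2 difference was 0.89, with mice of 21 weeks only (4 labelled KO, 2 labelled WT) it was 0.93, and with age as a covariate it was 0.85. Because Tgfa was picked for this difference, it carries no test here. In tissue RNA, more cells of a type and more RNA per cell cannot be told apart.

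The 250 bases before the annotated start of Tgfa are shown beside those of Egf, the EGFR ligand with the highest level in the pituitary, because KLF proteins bind GC-rich and CACCC sequences. Both are from RefSeq (build GRCm38.p6), at chr6:86194972-86195221 on the plus strand and chr3:129755323-129755572 on the minus strand. Capitals mark matches to GGGCGG (a GC box, or CCGCCC on the other strand) and to CACCC (or GGGTG on the other strand). These motif letters do not overlap each other here.
Tgfa: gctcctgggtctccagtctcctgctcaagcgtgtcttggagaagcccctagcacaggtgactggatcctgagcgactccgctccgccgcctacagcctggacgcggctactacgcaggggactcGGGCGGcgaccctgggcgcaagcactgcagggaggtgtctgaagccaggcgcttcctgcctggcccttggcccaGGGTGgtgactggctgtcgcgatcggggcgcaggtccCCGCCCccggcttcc
Egf: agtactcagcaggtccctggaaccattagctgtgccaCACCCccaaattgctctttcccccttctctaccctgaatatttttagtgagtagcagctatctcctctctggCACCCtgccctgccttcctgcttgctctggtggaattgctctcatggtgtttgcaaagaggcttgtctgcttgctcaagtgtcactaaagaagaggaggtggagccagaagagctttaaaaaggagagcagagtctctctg
The Tgfa window held 2 GC boxes and 1 CACCC match with a GC content of 69.2%, at percentile 90.2 of all 32851 promoters of that length in the table. The Egf window held 0 GC boxes and 2 CACCC matches with a GC content of 50.4%, at percentile 44.1. A second annotated Egf promoter, at chr3:129725087-129725336 on the minus strand and not printed, held 0 GC boxes and 0 CACCC matches with a GC content of 52.0%. Of all promoters, 32.7% held a GC box, 16.7% held at least 2 and 52.0% held CACCC on either strand. Promoters were found for 7 of the 10 genes, not all of which are printed. The Erbb2 window held 0 GC boxes and 4 CACCC matches (GC content 66.0%), and 2.14% of all promoters held at least 4. Btc had 0 GC boxes and 3 CACCC matches, Areg 1 and 2, Egfr 1 and 1, and Erbb4 0 and 1. The matches describe letters only, and binding was not measured.

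**Figure D1:**
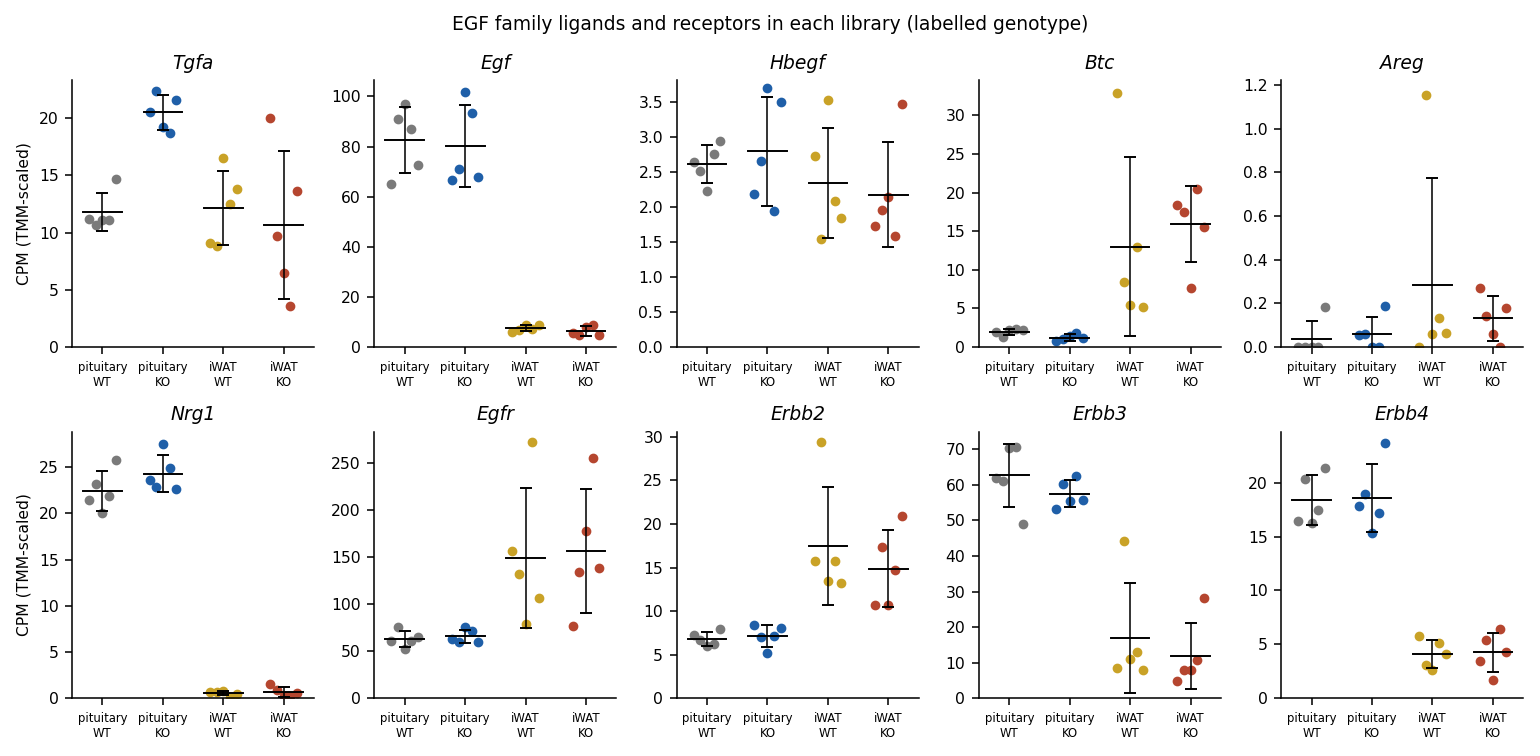
CPM of each of the 10 genes in the 20 libraries, with 1 point per library, the group mean (line) and the SD (error bar, n = 5), on axes that start at 0. The 5 Tgfa points labelled KO in the pituitary (18.7 to 22.4 CPM) lie above all 5 labelled WT (10.7 to 14.7 CPM), whereas the iWAT points of Tgfa, Btc, Egfr, Erbb2 and Erbb3 are spread widely within each group.

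In the pituitary 9 of the 10 genes entered the fit over all genes, and Areg did not pass the low-count filter. Tgfa was past the adjusted p threshold of 0.05 in edgeR and its groups did not overlap, both of which the choice of the family from this contrast fixes, so neither is a test result here. Over all genes 90 of 16389, 0.549%, were past the threshold and 2.85% had groups that did not overlap. The other 8 genes were not past the threshold and their groups overlapped. Of the 9 genes 6 were higher and 3 lower in the labelled KO libraries by sign alone, with a median log2 difference of 0.063 against 0.0036 over all genes.

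Btc, the betacellulin gene, was at 1.99, 1.35, 2.17, 2.34 and 2.14 CPM in the pituitary libraries labelled WT of mice 33, 34, 48, 49 and 56. In those labelled KO it was at 0.745, 1.04, 1.38, 1.80 and 1.18 CPM in mice 31, 32, 35, 50 and 66. The labelled KO library was the higher one in only 2 of 25 pairs, but the groups overlapped through mice 34, 35 and 50. The log2 difference was -0.72 (SE 0.24) from 14 to 37 reads per library, did not pass the threshold, and was -0.51 with age as a covariate. Egf, the prototype ligand, was at 80.2 ± 16.2 CPM labelled KO and 82.6 ± 13.2 CPM labelled WT (SD, n = 5), a log2 difference of -0.043 (SE 0.15). Hbegf lay between 1.95 and 3.69 CPM in all 10 pituitary libraries, with a log2 difference of 0.098 (SE 0.19). Areg was at 0 counts in 6 of the 10 pituitary libraries and at most 3 in the others, so it was not detectable above the limit that a count of 0 allows (3 counts, 0.160 to 0.216 CPM in these libraries).

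Nrg1 and the receptors lay close together in the labelled groups of the pituitary. Nrg1 was at 24.3 ± 1.99 CPM labelled KO and 22.4 ± 2.15 CPM labelled WT (SD, n = 5; log2 difference 0.11, SE 0.079). Egfr differed by 0.063 (SE 0.092) on the log2 scale, Erbb2 by 0.080 (SE 0.14), Erbb3 by -0.12 (SE 0.088) and Erbb4 by 0.017 (SE 0.11). Erbb2 shares exon bases with Mien1, whose own level in the pituitary was 331% to 337% of that of Erbb2, and Egf with 6330410L21Rik, at 13.6% to 13.9% of Egf. Reads over the shared bases were counted for both genes and without strand, so part of the Erbb2 and Egf levels may belong to these neighbours.

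Per kilobase of exon, the pituitary libraries labelled WT had the order Egf (17.4 ± 2.77 CPM per kb, SD, n = 5), Erbb3 (15.6 ± 2.19), Nrg1 (10.7 ± 1.02), Egfr (9.84 ± 1.31), Erbb4 (4.31 ± 0.548), Tgfa (2.78 ± 0.392), Erbb2 (1.36 ± 0.158), Hbegf (1.10 ± 0.113), Btc (0.695 ± 0.132) and Areg (0.0307 ± 0.0685). Neighbours in this order whose libraries overlapped were Egf and Erbb3, Erbb3 and Nrg1, Nrg1 and Egfr, and Erbb2 and Hbegf. In the libraries labelled KO Tgfa stood at 4.84 ± 0.362 CPM per kb, next to Erbb4 at 4.36 ± 0.731, and these overlapped, whereas in the libraries labelled WT all Tgfa values lay below all Erbb4 values. Of the summed per-kb level of the 5 EGFR ligands, Tgfa made up 12.8% ± 2.62 labelled WT and 21.2% ± 4.01 labelled KO, and Egf 78.7% ± 4.22 and 71.7% ± 4.71 (SD, n = 5), shares that include the difference Tgfa was picked for. Erbb3 made up 50.0% ± 6.03 of the summed per-kb level of the 4 receptors in the labelled WT pituitary, Egfr 31.6% ± 3.78, Erbb4 13.9% ± 2.06 and Erbb2 4.41% ± 0.716. The counted Nrg1 exons cover chr8:31818028-31918203, a small stretch of the gene that GENCODE M21 places at chr8:31814551-32884029, so transcripts from exons outside it were counted in part or not at all.

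**Figure D2:**
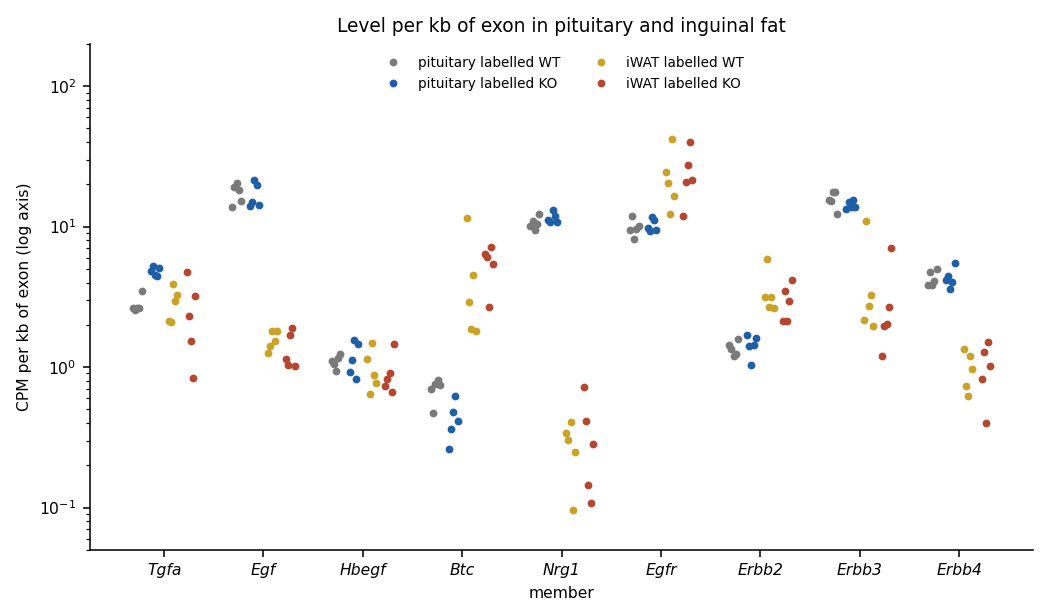
CPM per kb of exon (log axis) of 9 genes in the 4 groups, 1 point per library; Areg is left out because of its 0 counts. Egf, Nrg1, Erbb3 and Erbb4 are higher in the pituitary, Btc, Egfr and Erbb2 in iWAT, and in iWAT the Egfr points (11.97 CPM per kb or more) lie above those of every other gene (11.5 or less).

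Levels in iWAT did not depend on the choice of the family, and the labelled genotypes were compared there with a test. None of the 9 genes passed in edgeR's quasi-likelihood test (adjusted p 1 for each), 0 of 9 had an unadjusted p under 0.05, and the background was 0% called over 16105 genes, 89 of them with an unadjusted p under 0.05. DESeq2 called 0 genes and gave 127 with an unadjusted p under 0.05. Both counts are below a share of 0.05 of the genes, the share expected where no gene differs. The absence of calls therefore does not show that levels were equal. No gene of the family had groups that did not overlap, which held for 0.0807% of all genes. The spread between iWAT libraries was wide, with SEs on the log2 scale from 0.21 for Egf to 0.61 for Erbb3, against 0.079 for Nrg1 to 0.24 for Btc in the pituitary.

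Tgfa in iWAT was at 19.99, 9.73, 6.43, 3.54 and 13.6 CPM in the libraries labelled KO of mice 31, 32, 35, 50 and 66. In those labelled WT it was at 9.06, 8.85, 16.5, 12.5 and 13.8 CPM in mice 33, 34, 48, 49 and 56. The highest and the lowest library were both labelled KO, and the groups overlapped fully. The log2 difference was -0.21 (SE 0.41, adjusted p 1 in edgeR's quasi-likelihood test, labelled KO higher in 10 of 25 pairs), and it became 0.46 with mice of 21 weeks only and 0.016 without the labelled KO library of mouse 50. The labelled KO effect in iWAT minus that in the pituitary was -0.98 (SE 0.43) on the log2 scale for Tgfa, a value that contains the contrast it was picked for. For this difference between tissues edgeR's quasi-likelihood test called 0 of 9 family genes and 0% of 17731 genes, 427 of them with an unadjusted p under 0.05, and DESeq2 called 1 gene, outside the family. The 427 genes are also below a share of 0.05.

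The iWAT libraries differed in markers of lymph node B and T cells, and Tgfa followed these in some libraries and not in others. The 8 marker genes summed to 15.1 CPM in the labelled KO library of mouse 50, where Tgfa was lowest, and to 1173 and 1101 CPM in mice 31 (labelled KO) and 48 (labelled WT), where Tgfa was highest. Against this, mouse 35 had a sum of 862 CPM with the second-lowest Tgfa level, 6.43 CPM, and mouse 49 had the second-lowest sum, 263 CPM, with Tgfa at 12.5 CPM. They ranged from 15.1 to 1173 CPM labelled KO and from 263 to 1101 CPM labelled WT, and no marker of the list was at 0 in a whole group. Egfr, the receptor gene with the highest iWAT level, was at 77.1, 134, 178, 256 and 139 CPM in the libraries labelled KO of mice 31, 32, 35, 50 and 66. In the labelled WT libraries it was at 157, 132, 79.0, 273 and 107 CPM in mice 33, 34, 48, 49 and 56. In the inverse direction to the markers, its lowest libraries were those of mice 31 and 48, and its highest were those of mice 49 and 50, with lymph node sums of 263 and 15.1 CPM. Mouse 35 did not follow this, with the next highest Egfr level, 178 CPM, at a sum of 862 CPM. The adipocyte list ran from 4960 CPM (mouse 48) and 6371 CPM (mouse 31) to 18720 CPM (mouse 50). Egfr did not follow it throughout. Mouse 33 had the second-highest adipocyte sum, 14279 CPM, with Egfr at 157 CPM. Mouse 49, with the highest Egfr level, had an adipocyte sum of 11739 CPM. The log2 difference of Egfr between the labelled genotypes was 0.043 (SE 0.37). Other marker lists also differed between the iWAT libraries. The 8 skeletal muscle markers summed to 515 CPM in mouse 31, where Tgfa was highest, against 18.1 to 172 CPM in the other iWAT libraries. By sign, 8 of 8 muscle markers were higher labelled KO (median log2 difference 1.2). For macrophage markers this was 0 of 8 (-0.26), and for tested Schwann cell and nerve markers 0 of 9 (-0.28). No gene of these lists passed. The part of lymph node, muscle or other tissue in these levels was not tested.

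Erbb3 and Erbb2 were each highest in the same 2 iWAT libraries. Erbb3 was at 44.3 CPM in the labelled WT library of mouse 34, against 8.67, 10.98, 13.2 and 7.86 CPM in mice 33, 48, 49 and 56. In the labelled KO libraries it was at 28.1 CPM in mouse 66, against 4.81, 7.93, 8.09 and 10.7 CPM in mice 31, 32, 35 and 50. Erbb2 was at 29.4 CPM in mouse 34 and 20.9 CPM in mouse 66, against 10.7 to 17.4 CPM in the other 8. The 8 markers of keratinocytes and gland epithelium summed to 275 CPM in mouse 34 and 133 CPM in mouse 66, against 7.67 to 49.3 CPM in the other 8, and none of the 8 was at 0 in a whole group. Krt19 reached 73.2 CPM, Krt8 62.9 CPM and Epcam 40.6 CPM in mouse 34, while the basal keratins Krt5 and Krt14 reached 6.41 and 6.99 CPM. Areg, also a gene of epithelia, had 18 of the 22 reads of the labelled WT iWAT libraries in mouse 34, and at most 5 reads in any other iWAT library. The log2 difference between the labelled genotypes was -0.53 (SE 0.61) for Erbb3 and -0.26 (SE 0.28) for Erbb2, and without mice 34 and 66, an alternative added after these values were seen, -0.40 and -0.15. Leaving out mouse 34 alone turned Erbb3 to 0.22, and leaving out mouse 66 alone gave -1.15. The part of epithelium in these levels was not tested.

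**Figure D3:**
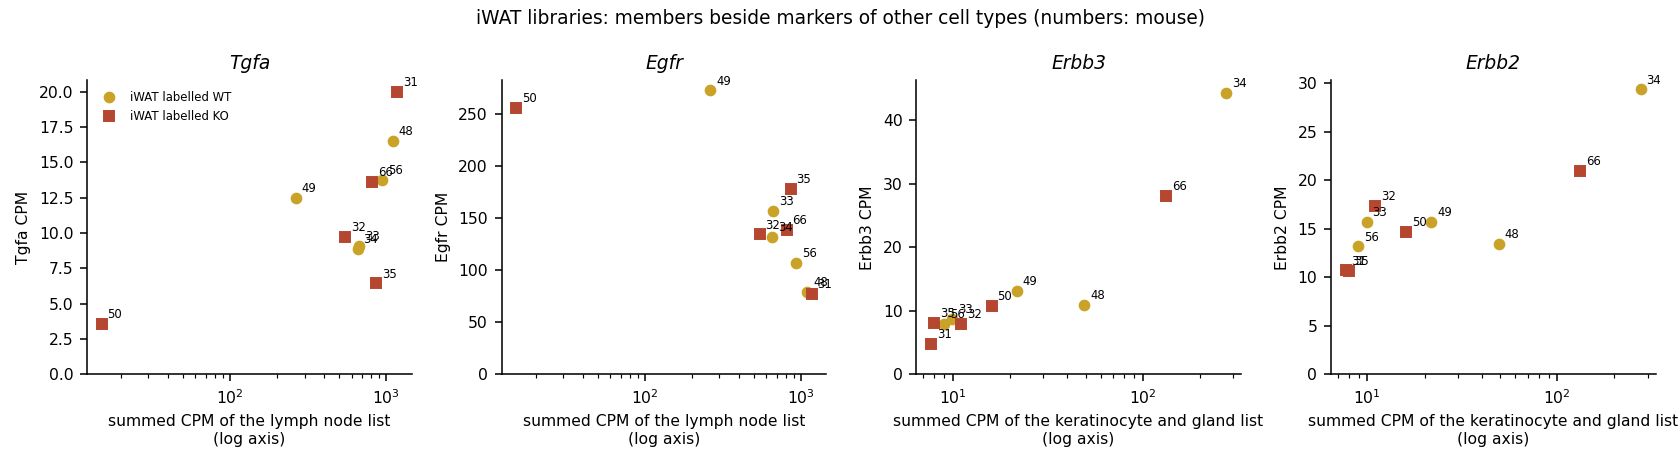
Tgfa and Egfr CPM against the summed CPM of 8 lymph node markers, and Erbb3 and Erbb2 CPM against that of 8 keratinocyte and gland epithelium markers (log horizontal axes), in the 10 iWAT libraries numbered by mouse. Mice 34 and 66 lie apart at the upper right for Erbb3, and mouse 50 lies at the far left of the lymph node axis with the lowest Tgfa (3.54 CPM) and an Egfr of 256 CPM.

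The remaining ligands in iWAT were also uneven between libraries. Btc was at 32.9, 8.40, 5.397, 12.9 and 5.18 CPM in the labelled WT libraries of mice 33, 34, 48, 49 and 56. In the labelled KO libraries it was at 18.4, 17.5, 7.66, 20.5 and 15.5 CPM in mice 31, 32, 35, 50 and 66. Mouse 33 alone was above all labelled KO libraries, the log2 difference was 0.28 (SE 0.50), and without mouse 33 it was 0.96, which did not pass either. Egf (4.84 to 8.96 CPM), Hbegf (1.54 to 3.52 CPM), Erbb4 (1.72 to 6.40 CPM) and Nrg1 (0.202 to 1.51 CPM) overlapped between the labelled genotypes, with log2 differences of -0.24, -0.12, 0.0065 and 0.25.

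**Figure D4:**
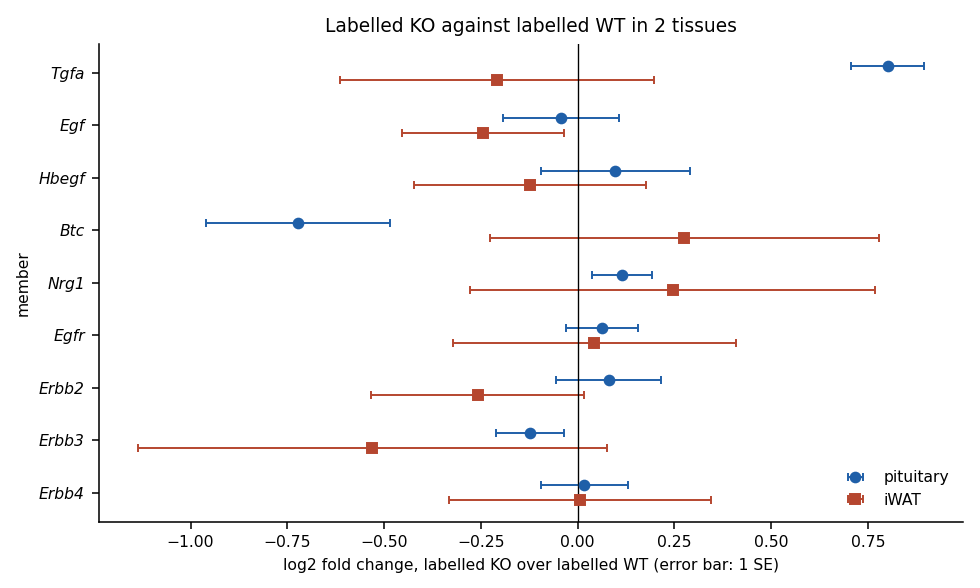
Log2 fold change of 9 genes, labelled KO over labelled WT, in the pituitary (circles) and iWAT (squares), with error bars of 1 SE. Tgfa in the pituitary is at 0.80 (SE 0.094), the value the family was picked for, and the iWAT estimates lie between -0.53 and 0.28 with wider bars.

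Between tissues, the family split in the libraries labelled WT. In edgeR's quasi-likelihood test 4 of the 9 genes were at least 2-fold higher in the pituitary, where 23.1% of all genes were, and 3 were at least 2-fold lower, where 22.5% were. Nrg1 was 38.1-fold higher (log2 difference 5.25, SE 0.23, adjusted p 3.01e-09), at 20.03 to 25.7 CPM in the pituitary against 0.202 to 0.849 CPM in iWAT. These iWAT levels rested on only 3 to 14 reads per library, the lowest at the limit of 3 counts. Egf was 11.2-fold higher (3.49, SE 0.15, adjusted p 2.76e-09), at 65.2 to 96.9 CPM against 5.95 to 8.65 CPM. Of the neuregulin receptor genes, Erbb4 was higher by 2.17 (SE 0.20, adjusted p 1.1e-06 in edgeR) and Erbb3 by 1.90 (SE 0.44, adjusted p 0.00201), or by 2.61 without the iWAT library of mouse 34, the labelled WT library high in epithelial markers. The genes lower in the pituitary were Btc (-2.66, SE 0.51, adjusted p 0.000537 in edgeR), Erbb2 (-1.34, SE 0.22, adjusted p 0.000176) and Egfr (-1.22, SE 0.28, adjusted p 0.0018). Neither Hbegf (0.18, SE 0.22) nor Tgfa (-0.027, SE 0.18) passed, and the Tgfa value uses the labelled WT pituitary libraries against which it was picked.

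The libraries labelled KO gave the tissue differences side by side with these. The log2 differences were 5.07 for Nrg1, 3.65 for Egf, 2.13 for Erbb4, 2.27 for Erbb3, -3.70 for Btc, -1.04 for Erbb2 and -1.24 for Egfr, and all 7 passed in edgeR's quasi-likelihood test (largest adjusted p 0.00123). With the 2-fold rule 4 genes were higher, where 22.6% of all genes were, and 3 lower, where 22.4% were. Hbegf was at 0.36 (SE 0.27) and did not pass. Tgfa was at 0.94 (SE 0.37), where its pituitary level is the one it was picked for, and this value is a description.

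Of the per-kb order in iWAT, labelled WT, Egfr came first at 23.2 ± 11.6 CPM per kb (SD, n = 5), above every library of the next, Btc at 4.51 ± 4.03. Erbb3 (4.23 ± 3.83), Erbb2 (3.50 ± 1.35) and Tgfa (2.87 ± 0.767) followed, and each of the 4 genes from Btc to Tgfa overlapped the next of them. Egf was at 1.57 ± 0.248, Hbegf at 0.985 ± 0.332, Erbb4 at 0.978 ± 0.305, Nrg1 at 0.278 ± 0.116 and Areg at 0.236 ± 0.408 CPM per kb. The breaks in this order, with no overlap of libraries, were those between Egfr and Btc, Tgfa and Egf, and Erbb4 and Nrg1. Egfr made up 71.8% ± 11.9 of the summed receptor level in iWAT labelled WT, and Btc 39.4% ± 20.6 and Tgfa 30.8% ± 12.3 of that of the EGFR ligands.

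Lists of pathway genes were read beside the family. The other EGF family ligands were Ereg, Epgn, Nrg2, Nrg3 and Nrg4. Epgn had 0 counts in every pituitary library, and Nrg4, a neuregulin of fat that binds ERBB4, had the highest level of the list in both tissues, with 50.3 CPM per kb over the 10 iWAT libraries and 5.05 CPM per kb over the 10 pituitary libraries. Nrg4, like Adam17 and Lrig1 below, shares exon bases with another gene, so part of these levels may belong to neighbours. Of 3 genes tested in the pituitary and 2 in iWAT none passed between the labelled genotypes, with medians of -0.052 and -0.044. Among 16 genes of ligand trafficking and shedding (the ADAM proteases, iRhoms, the cargo receptor Cnih1 and the protease inhibitor Timp3), none passed in either tissue. By sign 12 of 16 were higher labelled KO in the pituitary (median 0.071) and 7 of 15 in iWAT (median -0.0051), against medians over all genes of 0.0036 and -0.0002. The most abundant per kb were Timp3 (47.8 CPM per kb) and Cnih1 (26.6) in the pituitary and Timp3 (75.4) and Adam15 (42.4) in iWAT. Adam17, the main protease that releases TGFα, is named outside the naming rule and had a log2 difference of 0.14 (SE 0.063) in the pituitary, which did not pass.

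Downstream of the receptors, none of 27 adaptor and kinase genes, 20 inhibitor genes and 16 EGF-responsive transcripts passed between the labelled genotypes in either tissue. The adaptor and kinase genes, led per kb by the phosphatase gene Ptpn11 and the kinase gene Map2k1 in the pituitary and by Stat3 and Plcg1 in iWAT, had medians of 0.014 and 0.025 in the pituitary and in iWAT. The inhibitors, led by Lrig1 and Nf1 in the pituitary and by Errfi1 and Cbl in iWAT, had medians of 0.035 and 0.030. The EGF-responsive transcripts, among them immediate early genes that many stimuli raise, were higher labelled KO by sign in 6 of 16 in the pituitary (median -0.17) and 3 of 16 in iWAT (median -0.12). Their summed level in the pituitary ran from 387 to 611 CPM labelled KO and from 478 to 798 CPM labelled WT, and these ranges overlap. Junb and Fos, the most abundant of them per kb in the pituitary, had log2 differences of -0.33 (SE 0.23) and -0.70 (SE 0.40). Between tissues in the labelled WT libraries, 11 of 16 shedding genes and 8 of 20 inhibitors were at least 2-fold lower in the pituitary and passed in edgeR, and 1 and 0 were at least 2-fold higher. Over all genes 22.5% were lower and 23.1% higher by that rule. Of the adaptors and kinases 4 of 27 were lower and 2 higher by that rule, and of the EGF-responsive transcripts 5 of 16 were lower and 3 higher.

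**Figure D5:**
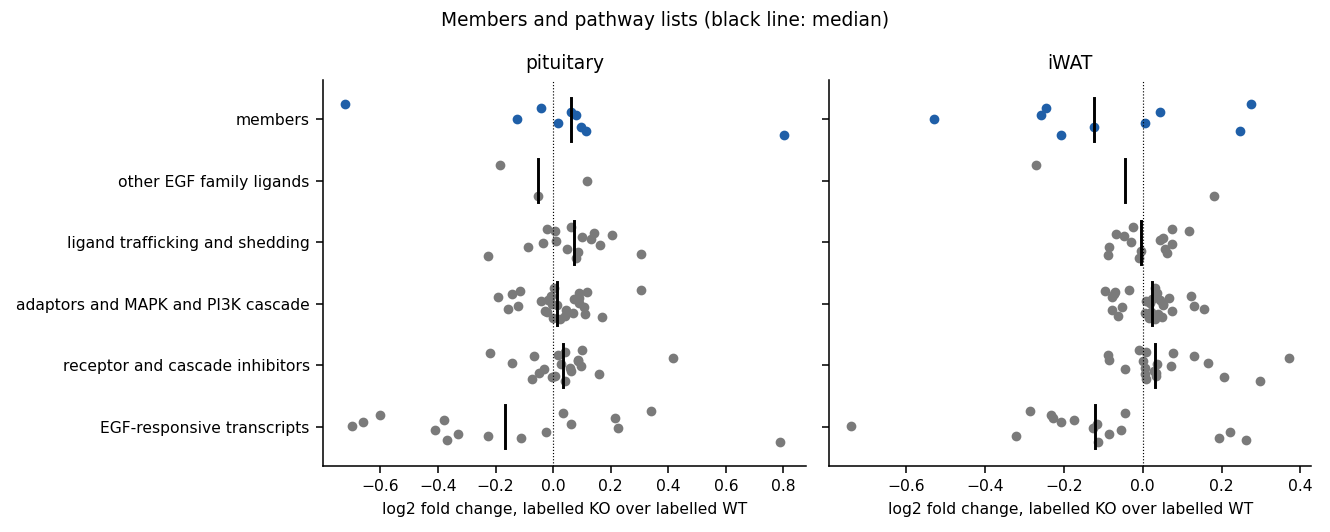
Log2 fold change, labelled KO over labelled WT, of each tested gene of the family and of the 5 pathway lists in the pituitary and in iWAT, with the median of each list as a black line. Tgfa is the family point at 0.80 in the pituitary, and the list medians lie between -0.17 and 0.071 there and between -0.12 and 0.030 in iWAT.

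Markers of other cell types were also read in the pituitary. The 9 folliculostellate and stem cell markers summed to 116 to 209 CPM labelled KO and 120 to 140 CPM labelled WT, the 8 macrophage markers to 75.9 to 184 and 77.3 to 91.4 CPM, and the 5 corticotroph and melanotroph markers to 7910 to 13824 and 4769 to 9339 CPM. No list held a gene that passed, and all these ranges overlap. The highest labelled KO sums of the folliculostellate and macrophage lists were both those of mouse 50. The next highest were 153 CPM (mouse 31) and 103 CPM (mouse 66). The 8 keratinocyte and gland epithelium markers, among them Epcam, Krt8 and Krt18 of pituitary epithelial cells, summed to 365 to 449 and 403 to 450 CPM. By sign, 7 of 8 macrophage markers (median log2 difference 0.32) and 4 of 5 corticotroph and melanotroph markers (0.23) were higher labelled KO. So were 5 of 6 posterior lobe (0.18), 5 of 5 blood (0.199), 2 of 2 thyrotroph (0.236) and 5 of 6 fibroblast and preadipocyte markers (0.072). Of the endothelial markers 2 of 6 were higher (-0.0285), of the gonadotroph markers 2 of 4 (-0.0349) and of the somatotroph markers 1 of 3 (-0.00844). The same held for 3 of 9 folliculostellate and stem cell markers (-0.034) and 1 of 5 tested keratinocyte and gland epithelium markers (-0.25). The part of cell types in the Tgfa level was not tested.

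The genes most like Tgfa across the 10 pituitary libraries were ranked by Pearson's r of log2 CPM, with each labelled group centred on its own mean, over 15684 genes. They were Nrarp (0.96, a regulator of Notch signalling), Add3 (0.92, an adducin of the membrane skeleton), Cdc42se2 (0.90), Mrpl4 (0.90, a mitochondrial ribosomal protein) and Rnf114 (0.90, a ubiquitin ligase), and the lowest was 1700110K17Rik (-0.95). Without the 2 libraries farthest from the median of Tgfa, those of mice 32 and 56, 0 of the 5 stayed among the top 5. Within the family, r to Tgfa was 0.59 for Erbb4, 0.54 for Erbb2, 0.31 for Hbegf, 0.25 for Nrg1, -0.088 for Btc, -0.26 for Egfr, -0.56 for Egf and -0.70 for Erbb3. These are descriptions over 10 libraries that also share depth and dissection.

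The genes near Tgfa were read over a window of 500 kb on each side, set after the values were seen. Of 21 neighbours tested in the pituitary 0 passed between the labelled genotypes, and their log2 differences ran from -0.49 to 0.23 with a median of 0.0024.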

How the data were processed

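Poly(A) RNA of 20 libraries was sequenced as single-end reads of 100 nucleotides, per the labels' protocols. The authors deposited whole-number counts per gene, not normalized, beside exon lengths. Per the file headers featureCounts counted primary alignments over exons of a UCSC mm10 annotation, counted a read for every gene it overlapped, and used no strand option, so overlapping genes cannot be told apart. The submitters' processing notes list STAR (2.4.0) and featureCounts (1.4.4).

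Each comparison was fitted alone over all genes in R 4.3.3 by edgeR 4.0.16 (TMM, filterByExpr, robust quasi-likelihood test, Benjamini-Hochberg adjustment, adjusted p threshold 0.05, between tissues also at least 2-fold), and the difference between tissues over all 20 libraries. SE is the log2 difference over the square root of F. The fits were tested on simulated counts, except the tissue comparison labelled KO. Every pair of libraries within a group differed beyond sampling noise (smallest reduced chi-square 4.70). Floors cover counting error only. The members and gene lists were chosen with earlier results of these data known. Named genes are the members, Klf14, list genes past the threshold, the 2 list genes highest in CPM per kb in each tissue, the 5 genes most and the 1 least like Tgfa, and markers. Alternatives were RLE scaling, no 20 most abundant genes, no filter or more than 1 CPM in 5 libraries, DESeq2 1.42.0, age, mice of 21 weeks, 1 fit over all libraries, mouse number as a block, each library left out and, added after seeing the data, no iWAT libraries of mice 34 and 66.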

Additional observations from a re-analysis of the deposited data

Results flagged for a closer look

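In 7 of 40 groups of 5 libraries (10 genes in 4 groups) 1 library lay far from the other 4 by Dixon's criterion. Chance meets it in about 1 group in 20 where values are independent and normally distributed. Genes that share a library, and levels near 0 counts such as those of Areg, do not meet this condition, so the 2 shares cannot be compared strictly. The iWAT library labelled WT of mouse 34 held 3 of them: Erbb2 at 29.4 CPM (next 15.7 CPM), Erbb3 at 44.3 CPM (next 13.2 CPM) and Areg at 1.15 CPM (next 0.134 CPM). The iWAT library labelled KO of mouse 66 was far in Erbb3, at 28.1 CPM (next 10.7 CPM). These 2 libraries also had the highest sums of keratinocyte and gland epithelium markers, 275 and 133 CPM, and the part of that tissue was not tested.

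The iWAT library labelled WT of mouse 33 was far in Btc, at 32.9 CPM (next 12.9 CPM). In the pituitary, the library labelled WT of mouse 56, the mouse of 18 weeks, was far in Tgfa, at 14.7 CPM (next 11.1 CPM), and in Areg, at 0.184 CPM from 3 reads, with 0 in the other 4.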

How the results depend on the processing

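The pituitary difference of Tgfa, for which the family was picked, is a description: it ran from 0.77 to 0.93 on the log2 scale over the alternatives, and with 1 fit over all 20 libraries 0 family genes were past the threshold. Over all genes the pituitary count of 90 became 288 with DESeq2, 44 with age as a covariate, 5 with mice of 21 weeks only, 1 with 1 fit over all 20 libraries, and 50 to 112 when each library was left out in turn (50 without labelled WT mouse 49, 51 without labelled WT mouse 56 and 55 without labelled KO mouse 32). For the difference between tissues the count of 0 became 1 with DESeq2 and 0 to 1 when each library was left out in turn (1 without the iWAT library labelled WT of mouse 33). By adjusted p alone, the tissue comparisons kept 7 called family genes labelled WT in every alternative. Labelled KO the count of 8 includes Tgfa, which carries no test there, and it was 7 to 9 over the alternatives, with Hbegf called, at 0.59, without mouse 66. With the 2-fold rule, the 3 lower genes labelled WT became 2 without the iWAT library of mouse 49, where Egfr was at -0.89. Labelled KO the lower genes were 2 or 3 over the alternatives. Of the 5 genes most like Tgfa, 0 stayed without the 2 farthest libraries.

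Uncalled values changed sign, both values near 0 and larger ones such as that of Erbb3 in iWAT (-0.53). With mice of 21 weeks only, the pituitary value of Egfr was -0.087 and the iWAT values were -0.13 for Egfr, -0.26 for Erbb4, 0.46 for Tgfa, 0.12 for Hbegf and -0.49 for Btc. With age as a covariate Egf was 0.014 in the pituitary and Nrg1 -0.11 in iWAT. Without the iWAT libraries of mice 34 and 66, Erbb4 was -0.087 in iWAT and -0.079 for the difference between tissues. That difference for Egfr was -0.021 without the 20 most abundant genes, -0.029 with no filter, -0.0042 with age and -0.043 with mice of 21 weeks, and for Erbb4 -0.018, -0.021 and -0.30 without the 20 most abundant genes, with no filter and with mice of 21 weeks. Leaving out each library in turn gave, in the pituitary, -0.083 to 0.079 for Erbb4, -0.14 to 0.022 for Egf and -0.021 to 0.19 for Hbegf. In iWAT it gave -0.19 to 0.37 for Egfr, -0.43 to 0.017 for Erbb2, -1.15 to 0.22 for Erbb3, -0.17 to 0.21 for Erbb4, -0.55 to 0.016 for Tgfa, -0.37 to 0.075 for Hbegf and -0.25 to 0.46 for Nrg1. For Tgfa between tissues, labelled WT, it gave -0.15 to 0.082. For the difference between tissues it gave -0.26 to 0.34 for Egfr, -0.99 to 0.35 for Erbb3, -0.20 to 0.22 for Erbb4 and -0.35 to 0.37 for Nrg1. The cause was not tested.

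Whether libraries of the same number in both tissues come from the same animal is not known. The correlation of same-numbered libraries' deviations was -0.059 to 0.095, and 4 of 10 correlated best with their own number. These values cannot decide the question, because unlike tissues of the same animal need not deviate alike. With the mouse number as a replicate block, 13197 genes against 13461 were called between tissues labelled WT and 12270 against 12696 labelled KO, family calls stayed at 7, 8 and 0, Tgfa was 0.0028 between tissues labelled WT, and the difference for Erbb4 was -0.030. Depth limits Areg in both tissues, Btc in the pituitary, which had at most 37 reads per library, and Nrg1 in iWAT, which had 3 to 28.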
